A study of Mus musculus with 8 samples.

Results

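The genes described here are 10 components of the Notch pathway among the 54752 genes counted in fetal mouse brain. They comprise the receptors Notch1, Notch2 and Notch3, the ligands Dll1, Dll3 and Jag1, the fringe glycosyltransferase Mfng and the Hes genes Hes1, Hes5 and Hes6, and were listed by name. The brains were wild-type brains of the strain C57BL/6 (C57BL/6Slac in the study's methods) collected at E15.5 (embryonic age in days), with 4 brains in each group and 2 females and 2 males in both. In the stress group the dam had been exposed to chronic unpredictable mild stress (CUMS, a changing schedule of mild stressors) for much of gestation, up to the day before collection, and the control dam stayed in the home cage. No transgene, deletion or drug is named for either group. By the study's sample sheet each group of 4 came from 1 litter, so that litter and stress cannot be told apart and the p-values measure the spread between littermates. The study's methods describe the tissue as whole brain of forebrain, midbrain and hindbrain, whereas its sample sheet has the entry half_whole_brain, so that how much of each brain was used is not clear. Brains are named below by the letter of their sex and their number, F36, F37, M30 and M31 for control and F34, F35, M28 and M29 for stress.

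Notch signalling passes between neighbouring cells. A ligand of the Delta or Jagged type on one cell binds a Notch receptor on the next, the receptor is cleaved by an ADAM protease and by gamma-secretase, and the freed intracellular domain joins RBPJ and a Mastermind coactivator to switch on Hes and Hey genes. In the embryonic brain this is known for keeping radial glia, the neural stem cells, undifferentiated: Hes1 and Hes5 repress proneural factors such as Neurog2, which in turn switch on Dll1 in cells that begin to differentiate.

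Libraries held 25320109 to 29105710 counts, with TMM factors close to 1 in every brain. All 10 genes passed the filter on low counts, and the lowest count of any of them was 269. Levels are given as CPM, the counts of a gene per 1000000 counts of the TMM-scaled library total. Neuron markers summed to 6444 to 6815 CPM and radial glia markers to 2265 to 2411 CPM over the 8 brains, and no marker of either list was at 0. In such bulk tissue, fewer cells of a type and less RNA per cell cannot be told apart. The median log2 fold change of all genes tested was 0.0015, and 13.8% of them were called between the groups, 6.49% higher and 7.27% lower in the stressed brains.

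Of the 10 genes, 3 rose in the stressed brains and none fell. Dll1, Mfng and Notch1 passed the test, with folds of 1.12, 1.13 and 1.10. No member was lower at an unadjusted p under 0.05 either, in edgeR or in DESeq2, and 5 were at an unadjusted p under 0.05 in edgeR, against 26.9% of all genes. DESeq2 called 1 member higher, Dll1, where it called 4.19% of all genes higher. The log2 fold changes ran from -0.097 to 0.17 with a median of 0.12, and 8 of the 10 were positive against 50.6% of all genes. In Dll1 alone the stressed and the control brains did not overlap, a pattern that 16.4% of all genes showed, 8.2% with the stressed brains higher and 8.22% with them lower.

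**Figure D1:**
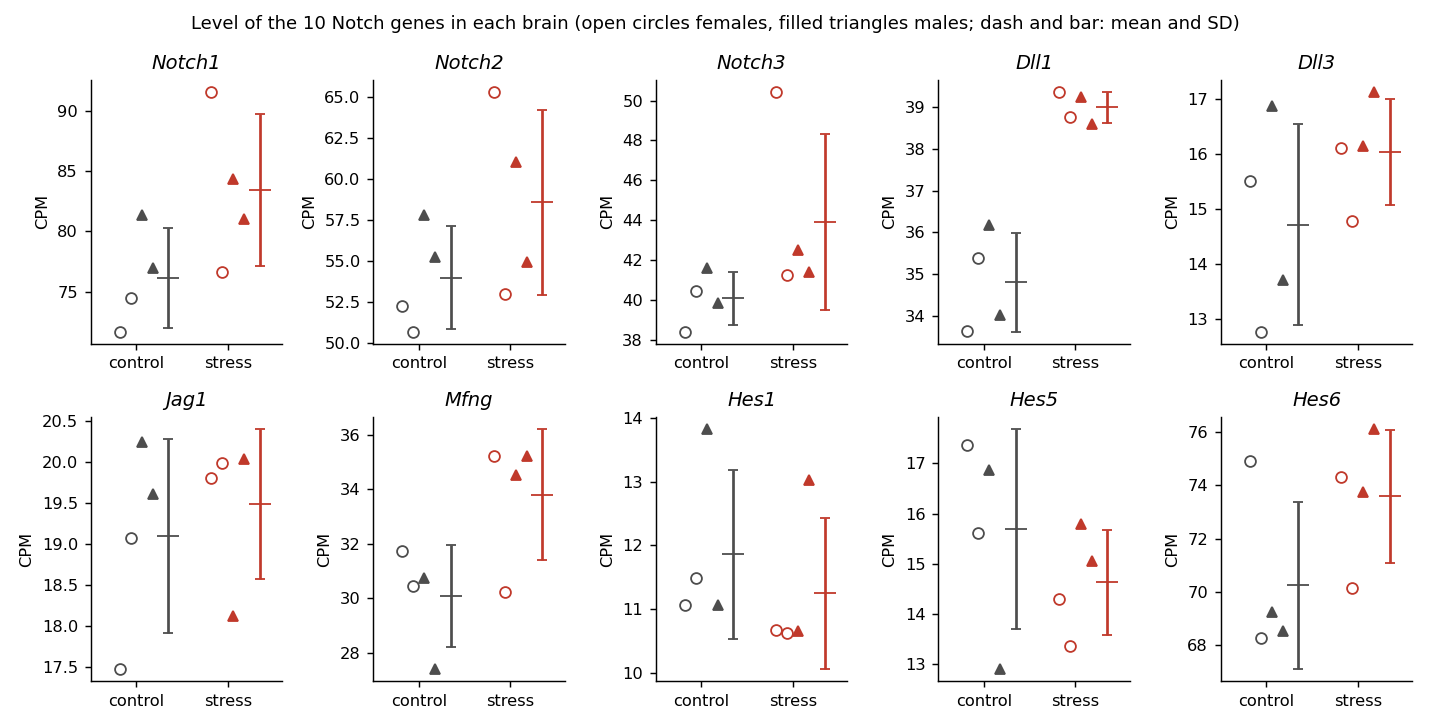
Level of each of the 10 genes in each brain, in CPM, with control brains in grey and stressed brains in red. Open circles are females, filled triangles are males, and the dash and bar are the mean and SD of 4 brains; the vertical axes do not start at 0. Dll1 is the gene whose 4 stressed brains, at 38.6 to 39.4 CPM, all lie above the 4 control brains, at 33.6 to 36.2 CPM.

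Promoters are shown for Dll1 and Notch1, which rose, and for Hes5, which is known as a direct target of the Notch intracellular domain and RBPJ. The RefSeq table for GRCm38.p6 held 10 windows for 8 of the 10 genes, 2 each for Dll1 and Hes6 and none for Mfng and Hes1, and the 250 bases before each start were searched on both strands for 4 motifs. These were TGGGAA, the core bound by RBPJ; CACNAG, the N-box bound by Hes proteins; and CAGCTG and CAGATG, E-boxes of the kind bound by proneural factors. Matches are in capitals, and a match on the other strand is written as it reads on the strand shown, 5′ to 3′ towards the start of the gene. The Hes5 window is chr4:154960673-154960922 on the plus strand, the Dll1 window chr17:15376933-15377182 on the minus strand and the Notch1 window chr2:26503823-26504072 on the minus strand, which lies inside the longer span of Notch1 in the count tables. The other Dll1 window, chr17:15375824-15376073, held none of the 4 motifs and is not printed.
Hes5: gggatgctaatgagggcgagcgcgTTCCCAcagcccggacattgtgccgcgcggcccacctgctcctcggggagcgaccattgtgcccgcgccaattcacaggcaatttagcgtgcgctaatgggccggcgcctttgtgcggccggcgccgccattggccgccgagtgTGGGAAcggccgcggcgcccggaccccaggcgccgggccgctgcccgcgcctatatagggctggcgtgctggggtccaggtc
Dll1: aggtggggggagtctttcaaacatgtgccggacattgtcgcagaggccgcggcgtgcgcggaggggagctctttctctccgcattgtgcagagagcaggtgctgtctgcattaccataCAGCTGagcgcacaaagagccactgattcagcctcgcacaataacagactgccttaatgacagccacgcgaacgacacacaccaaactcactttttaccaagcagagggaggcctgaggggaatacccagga
Notch1: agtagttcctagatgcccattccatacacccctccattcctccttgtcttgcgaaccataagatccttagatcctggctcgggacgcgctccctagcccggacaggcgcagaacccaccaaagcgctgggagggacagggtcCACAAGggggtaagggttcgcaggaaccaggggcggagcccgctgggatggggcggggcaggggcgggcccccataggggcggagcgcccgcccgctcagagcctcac

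TGGGAA was in 1 of the 10 windows, that of Hes5, at 226 and at 82 bases before the start, and in 21.6% of the 32851 windows of all genes. CAGCTG was in 5 of the 10 windows and in 13% of all windows. It stood 132 bases before the start in the Dll1 window printed and was also in both Hes6 windows and in those of Jag1 and Dll3. CACNAG was in 4 of the 10 windows and in 36.7% of all windows. It stood 108 bases before the start of Notch1 and was also in the windows of Notch2 and Notch3 and in 1 Hes6 window. CAGATG was in none of the members' windows and in 14.4% of all windows. A match is a run of letters and not evidence of binding.

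Among the receptors, Notch1 (ENSMUSG00000026923.15, chr2:26457903-26516663, minus strand, mm10), a receptor of radial glia, was higher in the stressed brains. Control F36, F37, M30 and M31 had 71.7, 74.5, 81.4 and 77.0 CPM, and stressed F34, F35, M28 and M29 had 91.6, 76.6, 84.4 and 81.0 CPM. F34 stood highest, and the lowest stressed brain, F35, lay below 2 of the control brains. The means were 76.1 ± 4.13 and 83.4 ± 6.32 CPM (SD, n = 4), with a log2 fold change of 0.13 (SE 0.043) and an adjusted p of 0.0399. In an exact permutation test of this gene alone p was 0.143. The call rested on single brains: without F34 the log2 fold change was 0.064 with an adjusted p of 0.267, and without F36, F37, M31 or M28 the adjusted p was 0.142, 0.106, 0.0665 and 0.0759.

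Notch2 (ENSMUSG00000027878.11, chr3:98013527-98150361, plus strand), also a receptor of neural progenitors, was highest in F34 and M28, as Notch1 was. It was at 52.2, 50.7, 57.8 and 55.2 CPM in control F36, F37, M30 and M31 and at 65.3, 53.0, 61.0 and 54.9 CPM in stressed F34, F35, M28 and M29. F34 and M28 were above every control brain, whereas F35 and M29 lay within the control range. The log2 fold change of 0.12 (SE 0.051) did not pass, with an adjusted p of 0.124; without F35 or without M29 it did, with adjusted p of 0.0412 and 0.0386, and without F34 the log2 fold change was 0.039 with an adjusted p of 0.628.

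Notch3 (ENSMUSG00000038146.7, chr17:32120820-32166880, minus strand), which is best known in pericytes and vascular smooth muscle, had 38.4, 40.4, 41.6 and 39.9 CPM in the control brains and 50.4, 41.2, 42.5 and 41.4 CPM in the stressed brains, in the same order of animals. The other 3 stressed brains lay close to the highest control brain, and F34 stood apart from them. The log2 fold change was 0.13 (SE 0.051, adjusted p = 0.0896), and it was 0.17 without F35 (adjusted p = 0.0327) and 0.051 without F34 (adjusted p = 0.513). None of 7 pericyte markers was called by edgeR, with summed levels of 156 to 171 CPM in control and 160 to 166 CPM in stressed brains; 2 were lower and none higher at an unadjusted p under 0.05, and DESeq2 placed none at either level.

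Added together, the 3 receptors reached 162, 166, 181 and 172 CPM in the control brains and 207, 171, 188 and 177 CPM in the stressed brains, with means of 170.2 ± 8.15 and 186 ± 16.0 CPM (SD, n = 4). Across the 8 brains the receptors varied together, with Pearson r of 0.95 for Notch1 and Notch2, 0.91 for Notch1 and Notch3 and 0.85 for Notch2 and Notch3 on log2 CPM. These values describe 8 libraries that share condition and depth, and carry no test. F34, the stressed brain with the highest Ttr, and M28, that with the highest Col1a1, as given below, had the highest stressed levels of each receptor. Control F36, with the highest Ttr and Col1a1 of the controls, had the lowest receptor sum. Leaving F34 and M28 both out must lower the receptor values. The log2 fold changes were then 0.049 for Notch1, -0.0013 for Notch2 and 0.042 for Notch3.

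Among the ligands, Dll1 (ENSMUSG00000014773.13, chr17:15367354-15376872, minus strand), the Delta ligand that newborn neuronal precursors present to their neighbours, gave the smallest p of the 10 genes. The control brains F36, F37, M30 and M31 had 33.6, 35.4, 36.2 and 34.03 CPM, and the stressed brains F34, F35, M28 and M29 had 39.4, 38.8, 39.2 and 38.6 CPM. All 4 stressed brains were above all 4 control brains, and they spread less among themselves than the controls did. The means were 34.8 ± 1.18 and 39.0 ± 0.376 CPM (SD, n = 4), and the exact permutation p of 0.0286 is the smallest that this design allows. The log2 fold change was 0.16 (SE 0.040) with an adjusted p of 0.00646 in edgeR and 0.0195 in DESeq2. Dll1 was called in 8 of 8 fits that left out 1 brain, with log2 fold changes of 0.15 to 0.18 and adjusted p up to 0.0313.

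Dll1 shares 20.5% of its exon bases with A930024N18Rik on the opposite strand. That gene had 125 to 171 counts against 924 to 1126 for Dll1, and its log2 fold change was 0.027 (SE 0.099, adjusted p = 0.903). With F34 and M28 both left out, the value of Dll1 was 0.15 with an adjusted p of 0.0653.

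Dll3 (ENSMUSG00000003436.11, chr7:28293553-28302238, minus strand), a divergent Delta that acts inside the cell and does not activate receptors on other cells, had 15.51, 12.8, 16.9 and 13.7 CPM in the control brains and 16.1, 14.8, 16.1 and 17.1 CPM in the stressed brains. The control brains spanned more than the stressed ones and the groups overlapped. Its log2 fold change was 0.13 (SE 0.069, adjusted p = 0.250).

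Jag1 (ENSMUSG00000027276.7, chr2:137081456-137116644, minus strand), the Jagged ligand, had 17.5, 19.1, 20.2 and 19.6 CPM in the control brains and 19.8, 19.99, 18.1 and 20.04 CPM in the stressed brains. Here the lowest stressed brain was M28 and the lowest control brain F36, and the means of 19.1 ± 1.19 and 19.5 ± 0.915 CPM differed by less than the SD of either group. The log2 fold change was 0.028 (SE 0.056, adjusted p = 0.801), and it was -0.015 without F36.

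Mfng (ENSMUSG00000018169.12, chr15:78755882-78773475, minus strand), manic fringe, extends the fucose sugars on the Notch extracellular domain and so sets how the receptor answers Delta and Jagged ligands. The control brains had 31.7, 30.5, 30.8 and 27.4 CPM and the stressed brains 35.2, 30.2, 34.5 and 35.2 CPM. F34, M28 and M29 were above every control brain, whereas F35 was below 3 of them. The means were 30.1 ± 1.87 and 33.8 ± 2.41 CPM (SD, n = 4), and the log2 fold change of 0.17 (SE 0.052) had an adjusted p of 0.0289. The exact permutation p was 0.114 and DESeq2 gave an adjusted p of 0.0677. The call was lost without F37, M31, F34, M28 or M29, with adjusted p of 0.0599, 0.141, 0.111, 0.0818 and 0.107.

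The Hes genes did not pass the test. Hes1 (ENSMUSG00000022528.8, chr16:30064384-30067796, plus strand), the repressor whose oscillating expression keeps progenitors cycling, had 11.1, 11.5, 13.8 and 11.1 CPM in the control brains and 10.7, 10.6, 10.7 and 13.0 CPM in the stressed brains. In each group 3 brains lay close together and 1 male stood above them, M30 among the controls and M29 among the stressed brains. The log2 fold change was -0.076 (SE 0.076, adjusted p = 0.579).

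Hes5 (ENSMUSG00000048001.7, chr4:154960923-154962371, plus strand), the other main Notch effector of radial glia, had 17.4, 15.6, 16.9 and 12.9 CPM in the control brains and 14.3, 13.4, 15.8 and 15.1 CPM in the stressed brains. Control M31 was the lowest of all 8 brains. The means were 15.7 ± 1.999 and 14.6 ± 1.04 CPM, with a log2 fold change of -0.097 (SE 0.076, adjusted p = 0.452). Without M31 it was -0.20 with an adjusted p of 0.0478. Hes5 shares 31.8% of its exon bases with Gm20421 on the opposite strand, which had 1 to 6 counts.

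Hes6 (ENSMUSG00000067071.8, chr1:91411483-91414038, minus strand), an atypical Hes protein that opposes Hes1 and goes with neuronal differentiation, had 74.9, 68.3, 69.3 and 68.5 CPM in the control brains and 74.3, 70.2, 73.8 and 76.1 CPM in the stressed brains. Control F36 lay among the stressed brains and the other 3 control brains below all of them. Its log2 fold change was 0.068 (SE 0.036, adjusted p = 0.236). Hes6 varied most with Mfng among the members, with a Pearson r of 0.84 over the 8 brains, as a description.

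Compared per length, as CPM per kilobase of exon over all 8 brains, Hes6 was the highest of the 10 at 39.8 ± 1.75 (SD, n = 8). Mfng at 11.3 ± 0.990 and Hes5 at 11.1 ± 1.16 came next and overlapped each other, followed by Dll1 at 8.75 ± 0.564. Hes1, Notch1, Dll3, Notch2 and Notch3 formed a run between 5.67 and 5.22 CPM per kilobase in which each gene overlapped its neighbour. Jag1 was the lowest at 3.31 ± 0.172. The ranges of neighbouring genes did not overlap between Hes6 and Mfng, Hes5 and Dll1, Dll1 and Hes1, or Notch3 and Jag1. The length used was that of all exons. Hes5 shares 31.8% of its exon bases with another gene, Dll1 20.5% and Notch1 9.76%, whereas Mfng shares none. Pairs in shared bases can go uncounted, so the levels of Hes5, Dll1 and Notch1 may be too low and their places in this order are not settled.

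The sexes were then compared. A difference between males and females was found for none of the 10 genes, at an adjusted or at an unadjusted p under 0.05, in edgeR or DESeq2; of all genes, 0.0896% were called and 5.91% were at an unadjusted p under 0.05 in edgeR. None showed a stress difference that depended on sex after adjustment in either tool, and 0.0056% of all genes did in edgeR. At an unadjusted p under 0.05 the interaction held 1 member in edgeR, Hes5, and none in DESeq2, where 6.31% of all genes were at that level in edgeR. Hes5 had a log2 fold change of -0.25 (SE 0.090, adjusted p = 0.116) in females and 0.053 (SE 0.094, adjusted p = 0.806) in males, and the difference of 0.31 (SE 0.14) had an unadjusted p of 0.0432 and an adjusted p of 0.767.

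Fitted alone, with 2 brains against 2, the females gave Notch1 a log2 fold change of 0.21 (adjusted p = 0.0329) and the males 0.062 (adjusted p = 0.441). Notch2 and Notch3 had 0.20 and 0.22 in females and 0.037 and 0.042 in males. Mfng had the opposite order, with 0.076 (adjusted p = 0.620) in females and 0.26 (adjusted p = 0.00748) in males. Dll1 was alike in size in both, at 0.18 and 0.15 (adjusted p = 0.0882 and 0.116). The adjusted p of the interaction was 0.8289 for Notch1, 0.807 for Mfng and 0.972 for Dll1, so that a difference between the sexes was not shown for any of the 3. The 2 stressed females were not alike in Notch2 and Notch3, at 65.3 and 50.4 CPM in F34 and 53.0 and 41.2 CPM in F35. The control females F36 and F37 had 52.2 and 50.7 CPM of Notch2 and 38.4 and 40.4 CPM of Notch3.

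**Figure D2:**
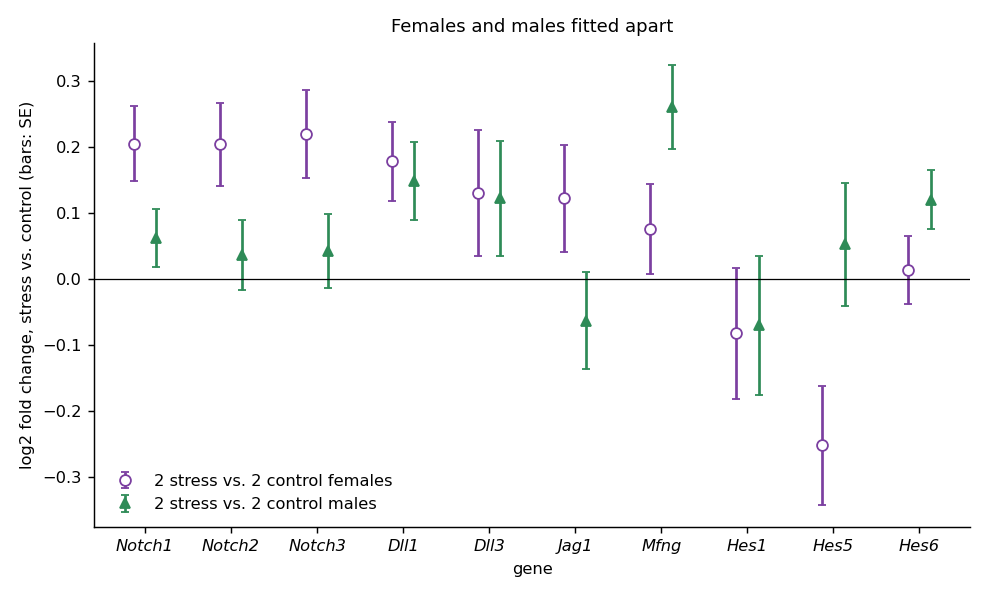
Log2 fold change of stress against control for each of the 10 genes, fitted in 2 against 2 females (open circles) and in 2 against 2 males (filled triangles), with bars for the SE. Notch1, Notch2 and Notch3 lie at 0.20 to 0.22 in females and 0.037 to 0.062 in males, and Hes5 at -0.25 and 0.053.

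The rest of the pathway was described from lists by role, with 59 of 61 other genes tested. Hes2 and Hes3 were not tested for low counts. Of the 59, 9 rose and 10 fell, where 6.49% of all genes rose and 7.27% fell, and the median log2 fold change was -0.00078. DESeq2 called 7 of them higher and 9 lower. By role, counting the members too, 3 of the 7 proneural and differentiation factors reported here rose and none fell; 3 of 13 nuclear effectors rose and 1 fell; 1 of 8 cleavage genes rose; 1 of 11 genes of endocytosis and turnover rose and 2 fell; 2 of 4 ligand ubiquitin ligases fell; 1 of 6 genes of receptor glycosylation and maturation rose and 2 fell; 1 of 5 canonical ligands rose and 2 fell; 1 of 3 other ligands fell; and 1 of 4 receptors rose. In the Hes and Hey family, none of the 7 genes tested was called by edgeR or DESeq2, and 1, Hey2, was higher at an unadjusted p under 0.05 in both. Hey2, Hey1, Heyl and Hes7 had log2 fold changes of 0.23, 0.028, 0.14 and -0.52 (edgeR adjusted p of 0.0795, 0.770, 0.406 and 0.237). Hes7 had only 9 to 21 counts. Notch4, the receptor outside the 10 genes, had -0.034 (adjusted p = 0.791).

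The ligands moved in different directions. Jag2, the other Jagged ligand, fell from 66.3 ± 2.02 to 60.5 ± 2.0999 CPM (SD, n = 4), with a log2 fold change of -0.13 (SE 0.034, adjusted p = 0.0109; 0.0590 without M29). Dll4, the Delta ligand of vascular endothelium, fell from 7.63 ± 0.611 to 5.96 ± 0.579 CPM, with a log2 fold change of -0.36 (SE 0.090, adjusted p = 0.00838). Most endothelial markers moved with it: 5 of 8 were called lower and none higher, and DESeq2 called 2 lower. Tie1 went the other way (log2 fold change 0.14, adjusted p = 0.0713 in edgeR), at an unadjusted p under 0.05 in both tools. The 8 endothelial markers summed to 178 to 197 CPM in control and 161 to 172 CPM in stressed brains, with none at 0. Their part in the difference of Dll4 was not tested. Dlk2, a ligand that lacks the usual receptor-binding module, fell from 31.7 ± 2.37 to 25.0 ± 2.28 CPM (log2 fold change -0.34, SE 0.056, adjusted p = 0.000169).

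Mib2 and Neurl1a, ubiquitin ligases that let the sending cell take up its ligand, were lower in all 4 stressed brains than in any control brain. Mib2 had 73.5 to 74.9 CPM in control and 62.5 to 65.8 CPM in stressed brains (log2 fold change -0.21, SE 0.031, adjusted p = 9.59e-05). Neurl1a had 30.8 to 32.3 and 24.1 to 27.9 CPM (log2 fold change -0.26, SE 0.046, adjusted p = 0.000449). Mib1, the ligase most used in the embryo, had a log2 fold change of 0.039 and was not called. Rfng, the fringe related to Mfng, went the other way from Mfng, with a log2 fold change of -0.15 (SE 0.039, adjusted p = 0.00812), and Furin, which cleaves the receptor on its way to the surface, had -0.18 (SE 0.047, adjusted p = 0.00874). Lfng, the remaining fringe, was at 23.7 ± 1.13 and 24.3 ± 1.37 CPM and was not called.

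On the receiving side, Ncstn, the nicastrin subunit of gamma-secretase, rose from 89.1 ± 3.01 to 101.7 ± 2.51 CPM (log2 fold change 0.19, SE 0.032, adjusted p = 0.000222). Rbpj, the DNA-binding partner of the cleaved receptor, rose from 125.5 ± 3.43 to 136.5 ± 2.23 CPM (log2 fold change 0.12, SE 0.029, adjusted p = 0.00563). Both were called in 8 of 8 fits without 1 brain. Maml3, a Mastermind coactivator, and Hdac1, a histone deacetylase of corepressor complexes, rose with log2 fold changes of 0.14 and 0.13 and adjusted p of 0.0419 and 0.0216. DESeq2 gave Maml3 an adjusted p of 0.133. The call of Maml3 was lost without F36, F37, M30, F35 or M29 (adjusted p of 0.0840, 0.0929, 0.143, 0.124 and 0.157) and that of Hdac1 without F37, M31 or M29 (0.0800, 0.111 and 0.116). Kat2a, a histone acetyltransferase, and Dtx1, a Deltex regulator of the receptor, both fell with a log2 fold change of -0.11 (adjusted p = 0.0134 and 0.0137); Kat2a was lost without M30 or M29 (0.0540 and 0.0583) and Dtx1 without M29 (0.0641). Nedd4, a ubiquitin ligase of receptor turnover, had a log2 fold change of 0.073 (SE 0.024, adjusted p = 0.0471 in edgeR and 0.0103 in DESeq2). It was called by edgeR in 0 of the 8 fits without 1 brain, with adjusted p of 0.0574 to 0.162.

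Among the proneural and differentiation factors, Neurog2 rose from 70.6 ± 4.797 to 83.7 ± 4.91 CPM (log2 fold change 0.24, SE 0.040, adjusted p = 0.000169). Neurog1, at low level, rose from 3.07 ± 0.237 to 4.22 ± 1.10 CPM, with a log2 fold change of 0.46 (SE 0.14, adjusted p = 0.0247), and with 0.27 (adjusted p = 0.215) without M29, while DESeq2 on all 8 brains gave an adjusted p of 0.0699. Btg2, which marks progenitors about to make neurons, had 0.18 (SE 0.044, adjusted p = 0.00692). Insm1, Neurod1, Neurod4 and Atoh1 did not pass, with log2 fold changes of 0.089 (adjusted p = 0.0598), -0.012, 0.0079 and -0.12. The call of Neurog1 was lost without M29 and also without F37, M30, M31 or F34 (adjusted p of 0.0661, 0.0560, 0.0859 and 0.0722).

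**Figure D3:**
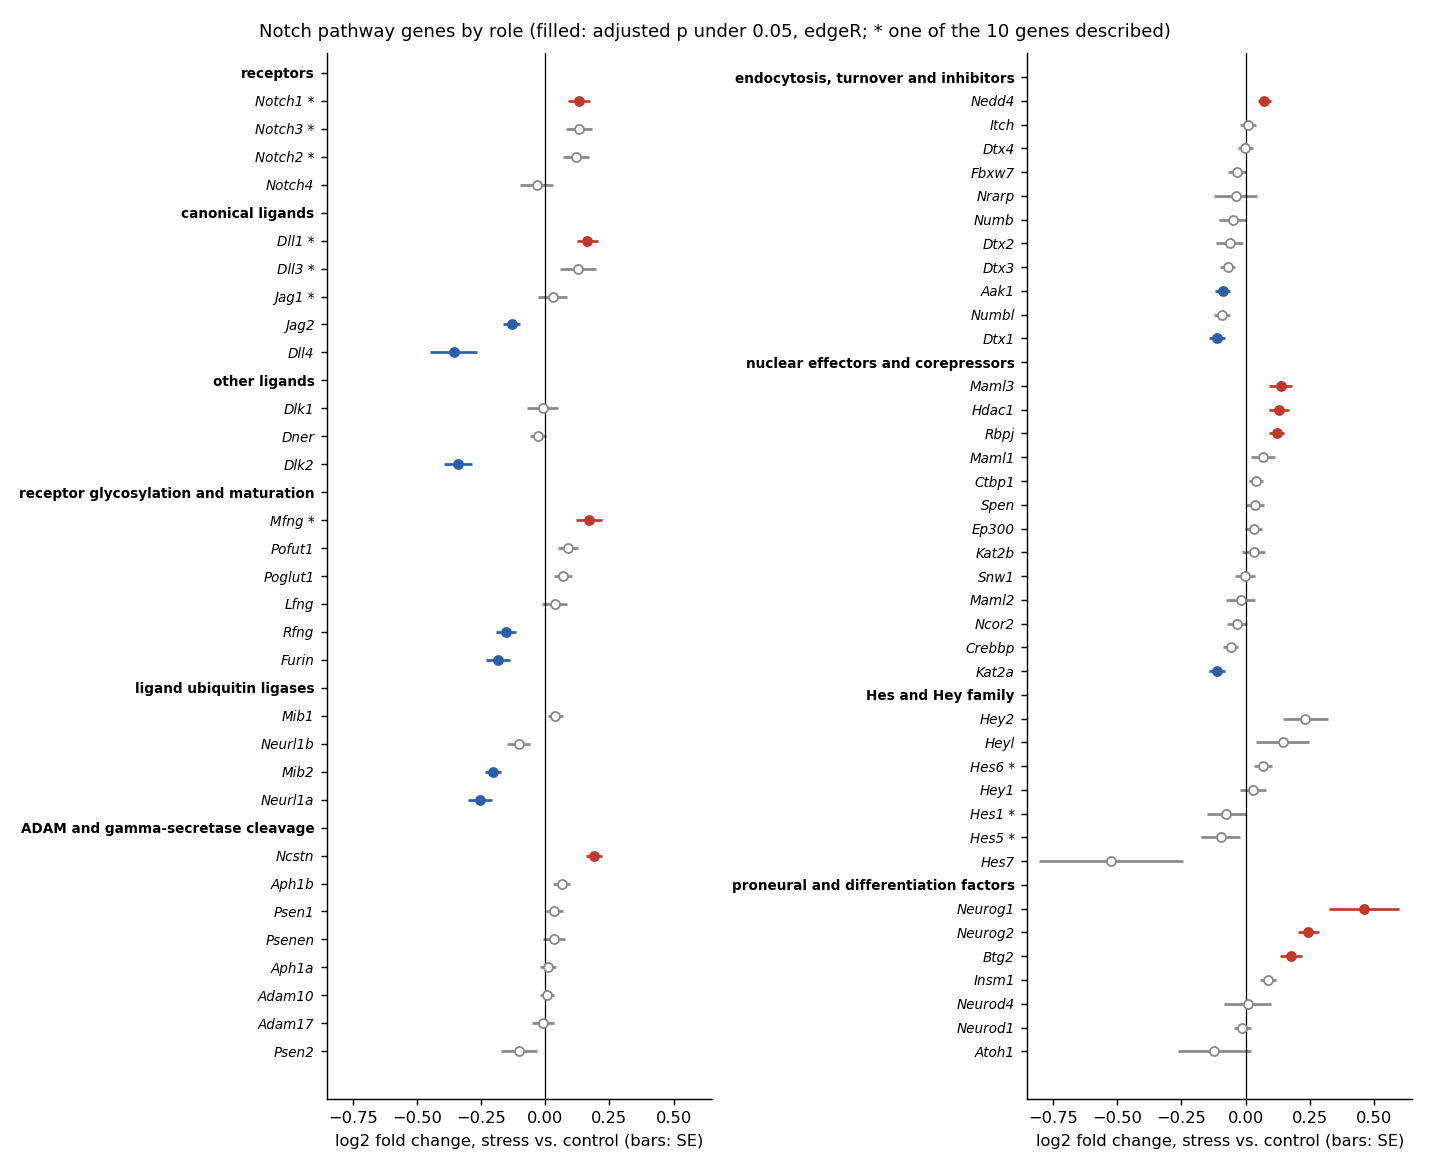
Log2 fold change of stress against control for the pathway genes, grouped by role, with bars for the SE; filled points passed the test, and an asterisk marks the 10 genes described. Points to the right were higher in the stressed brains, where Dll1, Mfng and Notch1 lie at 0.16, 0.17 and 0.13 and Neurog1 at 0.46, and points to the left lower, where Dll4 lies at -0.36.

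Markers of cell states moved between the same groups. All 8 proliferation markers rose, with summed levels of 605 to 649 CPM in control and 681 to 780 CPM in stressed brains. Of 5 intermediate progenitor markers 4 rose, 3 of them also in DESeq2 (245 to 264 and 276 to 309 CPM), a list that shares Neurog2 and Btg2 with the pathway lists. Of 10 radial glia markers, Pax6, Sox2, Nes and Vim rose in edgeR and none was called lower, DESeq2 not calling Nes (adjusted p = 0.204). The log2 fold changes were positive for 5 of the 10. They were negative for 5, namely Fabp7, Slc1a3, Hopx, Tnc and Ptprz1 (-0.016, -0.037, -0.096, -0.013 and -0.074). Ptprz1 was lower at an unadjusted p under 0.05 in both tools. The sums of the list overlapped, at 2265 to 2352 and 2267 to 2411 CPM. Of 8 neuron markers 4 fell and none rose, of which DESeq2 did not call Snap25 (adjusted p = 0.344) (6565 to 6815 and 6444 to 6749 CPM). No marker of these 4 lists was at 0, and their part in the differences of Dll1, Mfng and Notch1 was not tested.

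Markers of choroid plexus and meninges were uneven between animals. Of 5 choroid plexus markers, Ttr and Otx2 rose in edgeR and Clic6, Kl and Folr1 did not pass (log2 fold changes of 0.30, -0.37 and -0.20). The 5 summed to 36.9 to 47.1 CPM in control and 46.6 to 76.1 CPM in stressed brains. Most of this sum was Otx2 in every brain, at 34.7 to 41.2 CPM in control and 41.4 to 44.2 CPM in stressed brains. Of 4 meningeal markers tested, Col1a1 and Col3a1 rose. The list summed to 10.5 to 18.9 CPM in control and 13.4 to 41.5 CPM in stressed brains, including Lum, which was not tested for low counts. DESeq2 called Otx2 and not Ttr (adjusted p = 0.412) and none of the meningeal markers, of which 1 was at an unadjusted p under 0.05. Ttr reached 29.9 CPM in F34, against 0.564 to 6.95 CPM in the 7 other brains, stressed M29 being at 0.656 CPM, and Col1a1 reached 11.7 CPM in M28, against 0.846 to 4.27 CPM. F34 and M28 were also the stressed brains with the highest Notch1, Notch2 and Notch3, although M28 had less Ttr than F35 (5.02 against 6.76 CPM). Control F36 had the highest Ttr and Col1a1 of the controls, at 6.95 and 3.20 CPM. It had the lowest receptor sum of all 8 brains, 162 CPM. Without F34 and M28 edgeR called no member, where it called 741 of 18341 genes higher and 940 lower. Dll1 was the 1 member at an unadjusted p under 0.05, where 2001 genes were higher and 2186 lower at that level. The log2 fold change of Mfng was then 0.12 (adjusted p = 0.274). The part of choroid plexus or meninges in the receptor levels was not tested. Of the remaining lists, 2 of 5 oligodendrocyte precursor markers fell (117 to 129 and 104 to 109 CPM), 1 of 6 erythroid markers fell (359 to 406 and 361 to 376 CPM), and no microglia marker of 6 was called or at an unadjusted p under 0.05 in either tool (30.5 to 34.2 and 29.1 to 33.3 CPM).

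**Figure D4:**
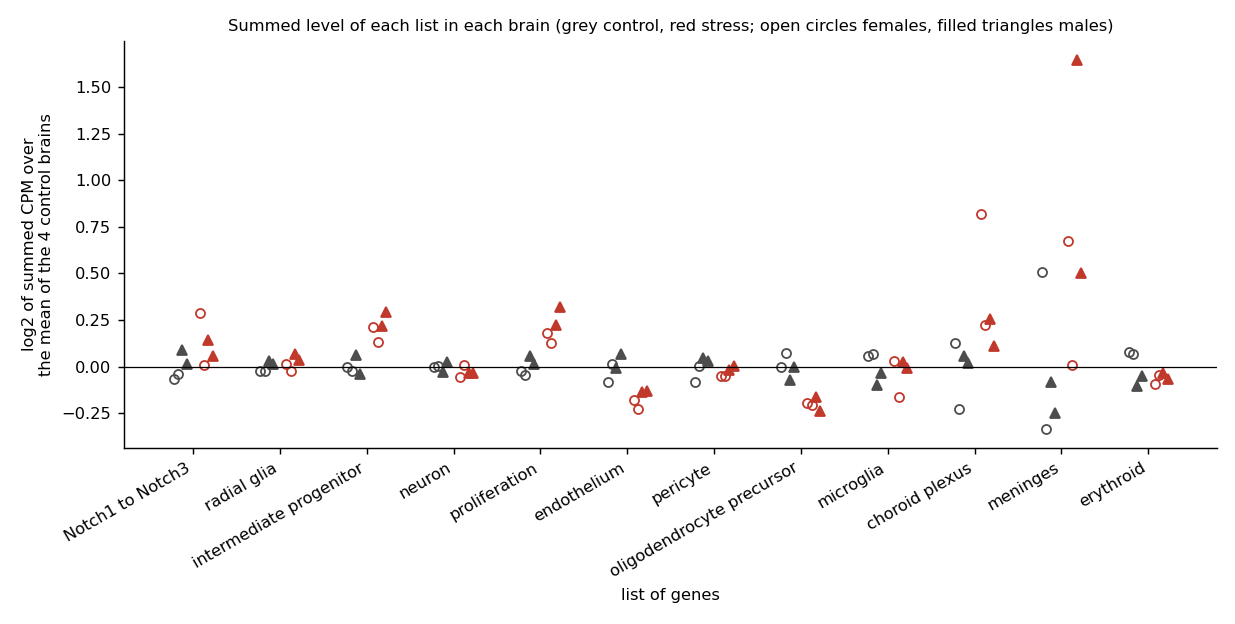
Summed CPM of the 3 receptors and of each marker list in each brain, as log2 of the ratio to the mean of the 4 control brains; grey is control, red is stress, open circles are females and filled triangles males. The receptors are highest in F34 at 0.29, the brain with the highest choroid plexus sum at 0.82, and the meningeal sum is highest in M28 at 1.65. Control F36, highest of the controls in these 2 sums at 0.13 and 0.51, has the lowest receptor sum at -0.068. Otx2 makes up most of the choroid plexus sum in each brain.

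The genes whose log2 CPM followed Dll1 most closely over the 8 brains, among 10464 genes with a mean of at least 10 CPM, were Bcor and Dpy19l1 with a Pearson r of 0.98 and Knstrn, Tmcc1 and Dcaf8 with 0.97. All 5 had positive log2 fold changes, of 0.12, 0.29, 0.39, 0.048 and 0.12 in that order. These correlations are a description over brains that share condition and library, and carry no test.

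**Figure D5:**
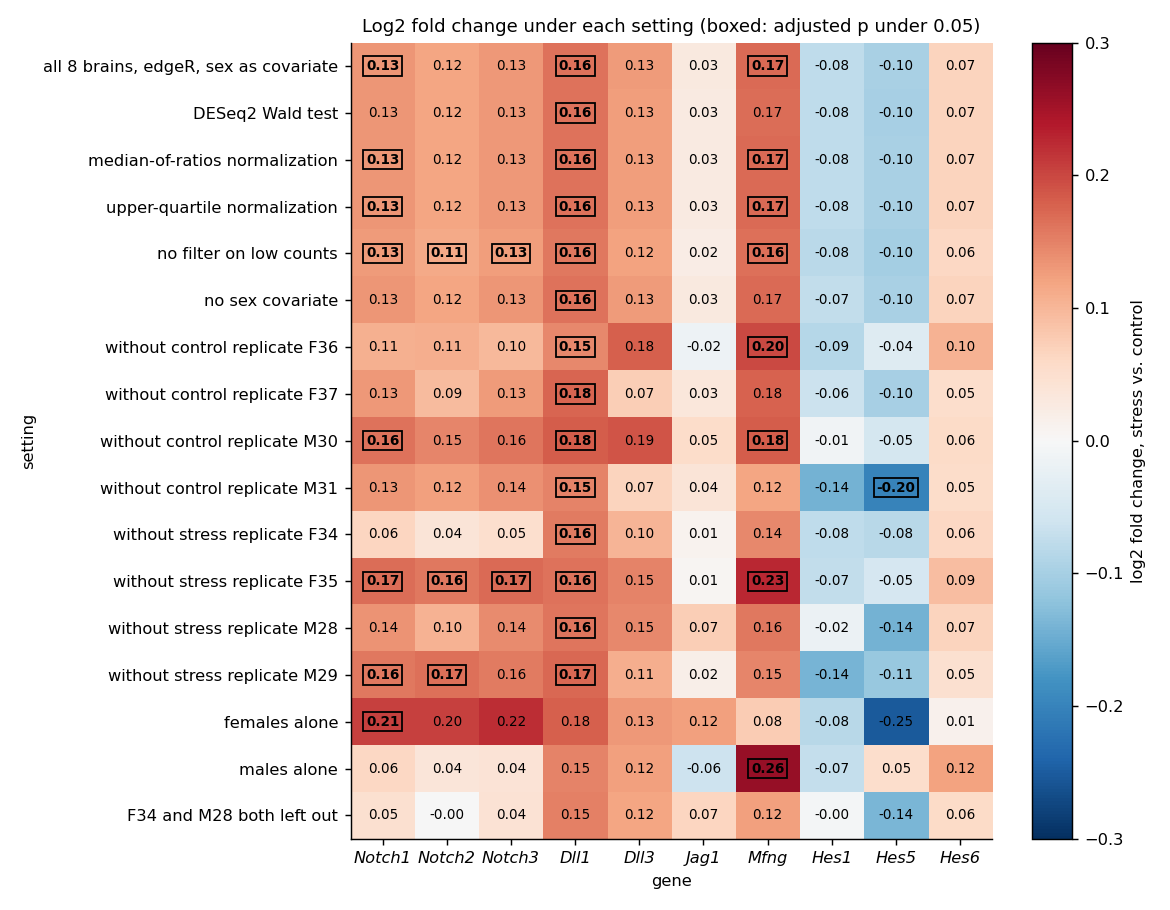
Log2 fold change of each of the 10 genes in the fit of all 8 brains and under 16 other settings, with boxes around values at an adjusted p under 0.05. Dll1 stays between 0.15 and 0.18 under all of them and is boxed in all but the fits of 1 sex and the fit without F34 and M28, whereas Notch1 runs from 0.049 to 0.21.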

How the data were processed

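The authors sequenced poly(A) RNA of fetal brain tissue as read pairs, trimmed them with Trim Galore and mapped them on mm10 by TopHat2 (2.1.1). They counted pairs on the exons of each GENCODE vM20 gene with featureCounts (1.6.3). These raw counts, neither normalized nor filtered, are what was deposited. No strand setting is named among the counting options, so the strand of a pair was not used to assign it to a gene. No option for pairs that fall on several genes is named either, and by default featureCounts leaves such pairs uncounted. Pairs in exon bases that a member shares with a partner can thus be missing from its count.

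Of 54752 identifiers, 54723 were matched to a symbol. Genes were kept by filterByExpr of edgeR (version 4.0.16 in R 4.3.3; minimum count 10), scaled by TMM and compared by the quasi-likelihood test (glmQLFit, glmQLFTest) in a model of sex and condition. Benjamini-Hochberg adjustment ran over all 17865 genes tested, and genes under an adjusted p of 0.05 were called. SE is the log2 fold change over the square root of F. DESeq2 (1.42.0), other scalings and filters, each sex alone and the removal of single brains were run as alternatives. Single values were compared by two-sided exact permutation over the 70 divisions of 8 brains into 4 and 4, of which the smallest p is 0.0286. The test across genes was first checked on simulated counts. Promoter sequences came from RefSeq (GRCm38.p6).

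All 10 member genes are given with values. Of the other pathway genes, those called whose groups did not overlap were named, at most 20 by smallest p, and the 5 genes most correlated with the member of smallest p were named as a description. Dll4, Rfng, Lfng, Furin, Mib1, Neurl1b, Btg2, Insm1, Neurod1, Neurod4, Atoh1, Hey1, Hey2, Heyl, Hes7 and Notch4 were named after their values were seen. A pathway gene that was tested and counted is not reported here. The members and lists were chosen with earlier results of these data known. Batch, which the study models, is not given for these brains in the sources used here and was left out of the model. Library totals were 25320109 to 29105710 counts, but counting error depends on the counts of each gene, which went down to 269 for Hes1. Its share in the spread between brains was not separated.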

Additional observations from a re-analysis of the deposited data

Results flagged for a closer look

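In 7 of 48 groups of 4 brains, 1 brain stood apart from the other 3 by more than Dixon's 95% critical value for the gap to its nearest neighbour over the range of the group; chance gives about 1 in 20. In the stress group these were F34, highest for Notch3 at 50.4 CPM (ratio 0.848), M28, lowest for Jag1 at 18.1 CPM (ratio 0.886), F35, lowest for Mfng at 30.2 CPM (ratio 0.870), and M29, highest for Hes1 at 13.0 CPM (ratio 0.974). In the control group they were M30, highest for Hes1 at 13.8 CPM (ratio 0.830), F36, highest for Hes6 at 74.9 CPM (ratio 0.849), and F37, lowest for Ncstn at 84.6 CPM (ratio 0.941). Hes1 was set apart in both groups, by 1 male in each.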

How the results depend on the processing

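The number of members higher in the stressed brains, 3 in the reported fit, was 1 with DESeq2, 5 without a filter on low counts and 1 without the sex covariate. It was 1 in females alone, 1 in males alone and 0 without F34 and M28, a removal chosen after seeing the data. It was 1 to 5 with 1 brain left out, and 3 under median-of-ratios and upper-quartile scaling. Of all genes, 1160 of 17865 were called higher in the reported fit, 748 with DESeq2 and 1029 without the sex covariate. Without the filter 1020 of 34568 were called higher, and without F34 and M28 741 of 18341. In females alone 295 of 17969 were, and in males alone 664 of 18057. With 1 brain left out the number was 736 to 1057. Members lower were 0 to 1 with 1 brain left out. Other pathway genes higher, 9 in the reported fit, were 3 in females alone and 4 to 9 with 1 brain left out, and those lower, 10 in the reported fit, were 3 in females alone, 5 in males alone and 6 to 10 with 1 brain left out. The log2 fold change changed sign for Hes5 (0.053) and Jag1 (-0.063) in males alone, for Jag1 without F36 (from -0.015 to 0.075 with 1 brain left out) and for Notch2 without F34 and M28 (-0.0013). No member was called for sex or for the interaction by edgeR or DESeq2 on all 8 brains or by edgeR with 1 brain left out, the fits that were run for these terms; where leaving out a brain left 1 sample in an arm, that sample was assumed to vary like the others. The cause of these changes was not tested. No paired analysis was possible because the groups share no replicate numbers. With 4 brains from 1 litter a group, the precision reflects the spread between littermates together with the counting error of each gene.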
